A study of Mus musculus with 4 samples.

Results

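The MYC, MAX and MXD network is a set of basic helix-loop-helix leucine zipper transcription factors, and 10 of its genes were followed here by symbol: Myc, Mycn, Mycl, Max, Mxd1, Mxd3, Mxd4, Mxi1, Mnt and Mga. All 10 symbols were found among the 55339 rows of the deposited expression table. Of these, 9 had a log2 value of at least 0 in at least 2 libraries and were tested among 17303 genes, and Mycn, the remaining one, was listed at 0 in all 4 libraries. The samples were leukemia cells from the bone marrow of C57BL/6 mice, with 2 libraries of genotype YBX1-/- (replicates 1 and 3, titled cKO) and 2 of genotype WT (replicates 4 and 5). YBX1 binds mRNA through its cold-shock domain, and the series title asks whether it keeps myeloid leukemia cells alive by acting on the stability of m6A-modified mRNA. The leukemia's driver, the Cre line behind the cKO name, the age of the mice and whether each library came from a separate mouse are not given in the sources used here. P-values therefore measure only the spread between these libraries, which may be technical.

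MAX is the obligate partner of the network. MYC-MAX dimers bind E-box DNA and recruit coactivators of transcription, whereas dimers of MAX with MXD proteins or MNT bind the same sites and recruit SIN3-type corepressors. MYC drives ribosome production, metabolism and proliferation and is a frequent driver of leukemia, and in myeloid cells a switch from MYC to MXD1 accompanies terminal differentiation. MGA joins MAX in a variant polycomb complex, PRC1.6.

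Values are the deposited log2 expression of each gene, and no counts are given, so depth is unknown. Ybx1 itself was at 7.29 and 8.33 in the Ybx1 knockouts, against 19.70 in WT replicate 4 and 10.002 in WT replicate 5. The values of WT replicate 4 were unlike those of the rest: Pearson's r across the tested genes was 0.69 to 0.71 for its pairs with the others and 0.93 to 0.96 for pairs without it, where genes are not independent replicates. In that library 22.9% of the tested genes lay in the narrow band from 4.8 to 5.6, a band set after the values were seen, against 5.51% to 5.71% in the others. Every tested member is therefore given with its values in both WT samples and with its difference from WT replicate 5 alone. Knockout replicate 3 is titled RNA-seq2 and the other 3 libraries RNA-seq1.

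Mxd4 lay higher in both Ybx1 knockouts than in both WT samples, and Myc, Mxi1 and Mnt lay lower in both. Values of the other 5 tested members overlapped between the groups. Limma called none of the 9 members at an adjusted p under 0.05, where it called 0 of all 17303 genes (0%) and the smallest adjusted p was 0.826. Mxd4 was the only member with an unadjusted p under 0.05, a level that 3.76% of all tested genes reached in either direction and 0.676% in the higher one. Among all tested genes 18.8% were lower and 17.3% were higher in this way, beside the 3 lower and 1 higher of 9 members, and with 9 genes these shares are a description only. Against WT replicate 5 alone, 6 members lay lower in both Ybx1 knockouts (33.4% of all tested genes did) and 2 higher (41.8% did). The 2 higher ones were Mxd4 and Mycl, and Mycl in knockout replicate 1 exceeded WT replicate 5 by only 1.1e-04 log2. Near ties of this kind at low values also count in the share of 41.8%.

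**Figure D1:**
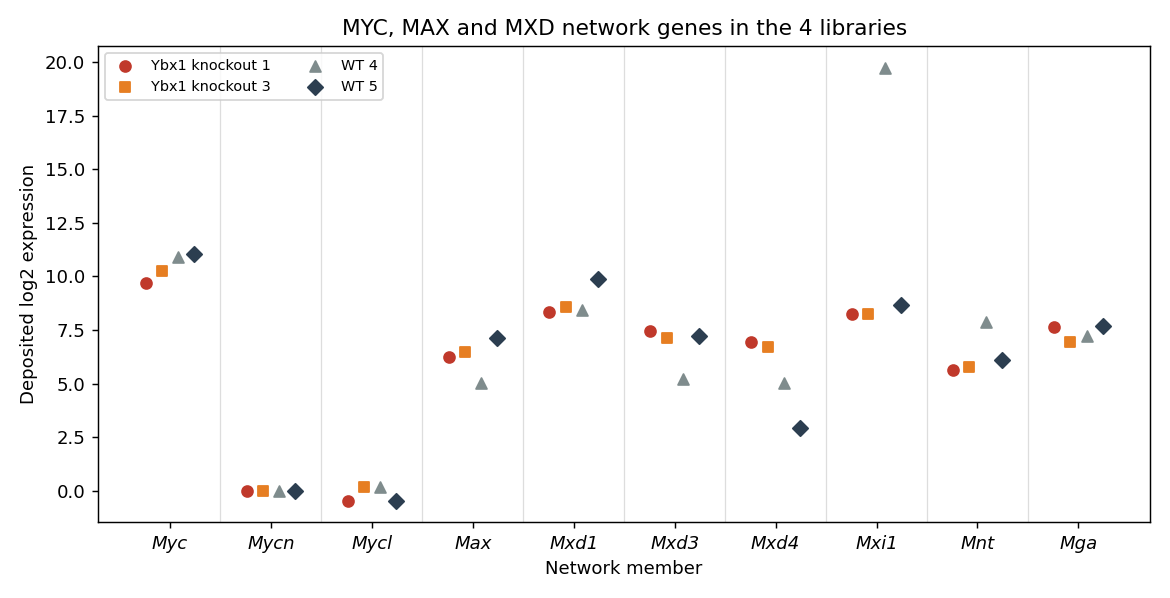
Deposited log2 expression (y axis) of the 10 network genes (x axis), with 1 point for each of the 2 Ybx1 knockout and 2 WT libraries. Myc lies lower in both Ybx1 knockouts, Mxd4 lies higher in both, and Mxi1 reaches 19.73 in WT replicate 4 alone.

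Myc (ENSMUSG00000022346.15, chromosome 15, 61985391 to 61990374, plus strand, GRCm38) was at 9.71 and 10.24 in the Ybx1 knockouts, against 10.91 and 11.05 in the WT samples. Neither knockout value reached a WT value, and the gap between the groups, 0.68 log2, was wider than the difference within the knockout pair (0.53) or the WT pair (0.14). The knockout mean was 9.97 ± 0.37 and the WT mean 10.98 ± 0.10 (SD, n = 2 each), a limma difference of -1.01 with a 95% interval from -3.86 to 1.83 and an adjusted p of 0.829. Myc was also a gene on which the WT samples agreed: its 2 WT values differed less than those of any other member listed above 0. Against WT replicate 5 alone the knockout mean was 1.08 log2 lower, a 2.12-fold lower level, and 2077 of the 17303 tested genes had a lower difference than that. Among the RNA-seq1 libraries, that is without knockout replicate 3, the limma difference was -1.28 (adjusted p = 1).

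The authors' deposited table carries its own fold change and p-values, with a header that reads WT against cKO. For most tested genes the sign of that fold change matches knockout minus WT of the sample columns, and for 15.7% of 17185 genes it does not. For Myc the authors' deposited table lists a log2 fold change of -4.82, which departs by -3.81 from the difference of its own sample columns. The p-value listed there by the authors' deposited table is 0.0103, adjusted to 0.0118. The genes next to Myc by p-value in the authors' deposited table, Tubgcp2 and Mtmr2, are listed at adjusted p-values of 0.0945 and 0.0947. Of the 1125 genes with a smaller deposited p-value than Myc, 650 have a larger adjusted p in the authors' deposited table. Among the 10330 genes with a deposited adjusted p under 1, Myc is the only one whose adjusted p lies over 0.1% below that of a gene with a smaller p-value.

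**Figure D2:**
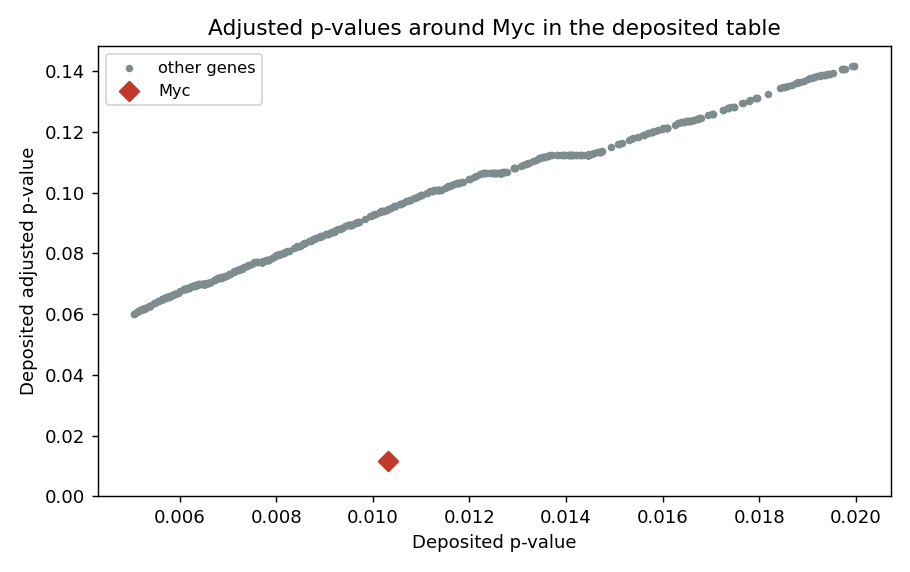
Adjusted p-value (y axis) against p-value (x axis) of the genes around Myc in the authors' deposited table, with 1 point per gene. Myc, at an adjusted p of 0.0118, lies below the line of its neighbours, which are listed near 0.0945 at the same p-value.

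The other MYC paralogs gave little or no signal. Mycn, the paralog of neural and other progenitor tissues, was listed at 0 in every library. Mycl (chromosome 4, 122995652 to 123002485, plus strand) was at -0.44 and 0.19 in the Ybx1 knockouts, against 0.17 and -0.44 in the WT samples, so the groups overlapped fully. Its limma difference was 0.01 (95% interval from -1.23 to 1.24, adjusted p = 0.999). The difference of the knockout mean from WT replicate 5 alone was 0.31.

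Max (chromosome 12, 76937269 to 76962201, minus strand), the shared partner, was at 6.23 and 6.48 in the Ybx1 knockouts, against 5.03 in WT replicate 4 and 7.11 in WT replicate 5. The knockout values lay between the 2 WT values. Its limma difference of 0.28 (95% interval from -2.17 to 2.74, adjusted p = 0.932) turned to -0.76 without WT replicate 4, where the value of 5.03 falls in the narrow band.

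Mxd4 (ENSMUSG00000037235.13, chromosome 5, 34173883 to 34187720, minus strand), an MXD repressor linked in other cells to the exit from the cell cycle, was at 6.95 and 6.73 in the Ybx1 knockouts, against 5.05 and 2.94 in the WT samples. Its gap between the groups, 1.67 log2, was the widest of the 10 members, but the WT pair differed by 2.11. The limma difference was 2.84 (SE 0.96, 95% interval from 0.31 to 5.37), with an unadjusted p of 0.0346 and an adjusted p of 0.826. Against WT replicate 5 alone the knockout mean was 3.90 log2 or 14.9-fold higher, and only 173 of the 17303 tested genes had a larger difference. Against WT replicate 4, whose value of 5.05 falls in the narrow band, it was 1.78 log2 higher. In the authors' deposited table Mxd4 had a log2 fold change of 4.03 (adjusted p = 0.0137), the sole member called higher, where that table called 27 of 17185 tested genes higher (0.157%) and 681 lower (3.96%). Of those 27 genes, 14 had a WT replicate 4 value in the narrow band and 6 had a larger deposited fold change.

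The E-box CACGTG, the palindromic site of MYC-MAX and MXD-MAX dimers, was searched on both strands of the RefSeq promoters (GRCm38.p6, 250 bases before to 50 bases after each start). Of the 10 members 9 matched the promoter table, with 11 promoters, and Myc did not. The E-box was found in 3 of the 9, Mxd4, Max and Mnt, and in 7.15% of all 32851 promoters. The variant CACGCG was found in Mycl and Mga and in 9.27% of all promoters. Members are counted here by gene and the shares by promoter, and a gene with several promoters has more chances of a match. These matches describe letters in a window and not bound sites. The Mxd4 promoter is shown whole because Mxd4 had the widest gap between the groups, and the E-boxes of Max and Mnt are shown with 27 bases on each side for comparison, with the E-box in capitals. The Mxd4 promoter is chr5:34187661-34187960 on the minus strand, the Max window is chr12:76962219-76962278 on the minus strand, and the Mnt window is chr11:74830774-74830833 on the plus strand.
Mxd4 promoter: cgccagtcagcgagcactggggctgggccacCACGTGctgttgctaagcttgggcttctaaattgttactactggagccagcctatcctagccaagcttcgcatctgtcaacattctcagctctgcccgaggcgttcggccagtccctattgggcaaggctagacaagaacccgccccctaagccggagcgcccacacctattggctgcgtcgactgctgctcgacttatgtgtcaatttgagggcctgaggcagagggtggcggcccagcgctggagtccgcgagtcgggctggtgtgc
Max window: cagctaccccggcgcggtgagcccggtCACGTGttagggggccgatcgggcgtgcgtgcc
Mnt window: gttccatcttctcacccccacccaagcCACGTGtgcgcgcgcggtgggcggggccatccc

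Mxd1 (chromosome 6, 86647042 to 86669161, minus strand), the MXD member induced as granulocytes and monocytes mature, was at 8.33 and 8.57 in the Ybx1 knockouts, against 8.45 in WT replicate 4 and 9.88 in WT replicate 5. WT replicate 4 lay between the 2 knockout libraries, and WT replicate 5 lay above all others. The limma difference was -0.72 (95% interval from -3.01 to 1.57, adjusted p = 0.840). Against WT replicate 5 alone it was -1.44, a 2.70-fold lower level, the lowest of the 9 members, with 8.16% of the tested genes lower still, while without WT replicate 5 the limma difference was 0.00 to 2 decimals. In the authors' deposited table Mxd1 had a log2 fold change of -1.45 (p = 0.0295, adjusted p = 0.183).

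Mature neutrophil markers were read beside Mxd1, whose own values overlapped between the groups. Of 9 such markers, 5 lay below both WT samples in both Ybx1 knockouts and 0 above, with Ltf at 6.49 and 6.38 against 8.90 and 10.71, and against WT replicate 5 alone 7 lay below and 0 above. Among all tested genes the shares were 18.8% below and 17.3% above both WT samples, and 33.4% below and 41.8% above WT replicate 5. Lcn2, Mmp8, Cxcr2 and Retnlg overlapped between the groups. The summed linear level of all 9 mature neutrophil markers, on the log2 scale, was 14.57 and 14.74 in the Ybx1 knockouts, against 22.06 and 16.44 in the WT samples. Of 7 monocyte and macrophage markers 3 lay below both WT samples and 0 above, with a summed level of 11.29 and 11.61 against 17.92 and 12.28. The summed level of 5 immature granulocyte markers was 16.92 and 16.95 in the Ybx1 knockouts, against 24.11 and 16.26 in the WT samples, so these were abundant in all 4. Of 7 T cell markers 4, Cd3e among them, were listed at 0 in all 4 libraries, while Lck was at 3.72 and 5.20 in the Ybx1 knockouts, against 4.57 and 4.17 in the WT samples. The B cell marker Cd79b was at 7.41 and 7.18 in the Ybx1 knockouts, against 5.16 and 6.996 in the WT samples. The part of maturing cells in the Mxd1 and Myc values was not tested, and in bulk RNA fewer cells of a type and less RNA per cell cannot be told apart.

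Mxd3 (chromosome 13, 55325168 to 55329823, minus strand), the MXD member expressed in S phase of dividing cells, was at 7.48 and 7.14 in the Ybx1 knockouts, against 5.21 in WT replicate 4 and 7.22 in WT replicate 5. WT replicate 4 alone was low, again inside the narrow band, and the other 3 libraries spanned 0.35 log2. The limma difference of 1.09 (95% interval from -1.30 to 3.48, adjusted p = 0.826) came down to 0.08 without WT replicate 4.

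Mxi1 (ENSMUSG00000025025.14, chromosome 19, 53310518 to 53375810, plus strand), also known as MXD2, was at 8.24 and 8.25 in the Ybx1 knockouts, against 19.73 in WT replicate 4 and 8.67 in WT replicate 5. WT replicate 4 was the only high library. The limma difference of -5.96 (95% interval from -16.12 to 4.21, adjusted p = 0.826) became -0.42 without WT replicate 4. It was -11.49 without WT replicate 5, where WT replicate 4 is the only WT library left. In the authors' deposited table its log2 fold change was -10.69 with a p-value of 1, and 1565 genes of that table have a fold change with a p-value of exactly 1.

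Mnt (ENSMUSG00000000282.12, chromosome 11, 74830920 to 74845725, plus strand), the broadly expressed MAX-binding repressor, was at 5.62 and 5.78 in the Ybx1 knockouts, against 7.89 and 6.11 in the WT samples. Neither knockout value reached a WT value, by a gap of 0.33 log2, with 1.78 between the 2 WT libraries. The limma difference of -1.30 (95% interval from -3.55 to 0.96, adjusted p = 0.826) was -0.41 without WT replicate 4. It was -2.19 without WT replicate 5, where again only WT replicate 4 stands for WT. Mga (chromosome 2, 119897228 to 119969581, plus strand), the largest protein of the network, was at 7.64 and 6.96 in the Ybx1 knockouts, against 7.22 and 7.68 in the WT samples. Its groups overlapped, with a limma difference of -0.15 (95% interval from -1.94 to 1.64, adjusted p = 0.950). For Mga the difference of the knockout mean from WT replicate 5 alone was -0.38. Among the RNA-seq1 libraries, which hold a single knockout, the limma differences were 2.95 for Mxd4, -5.96 for Mxi1, -1.38 for Mnt and 0.19 for Mga (adjusted p = 1 each).

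**Figure D3:**
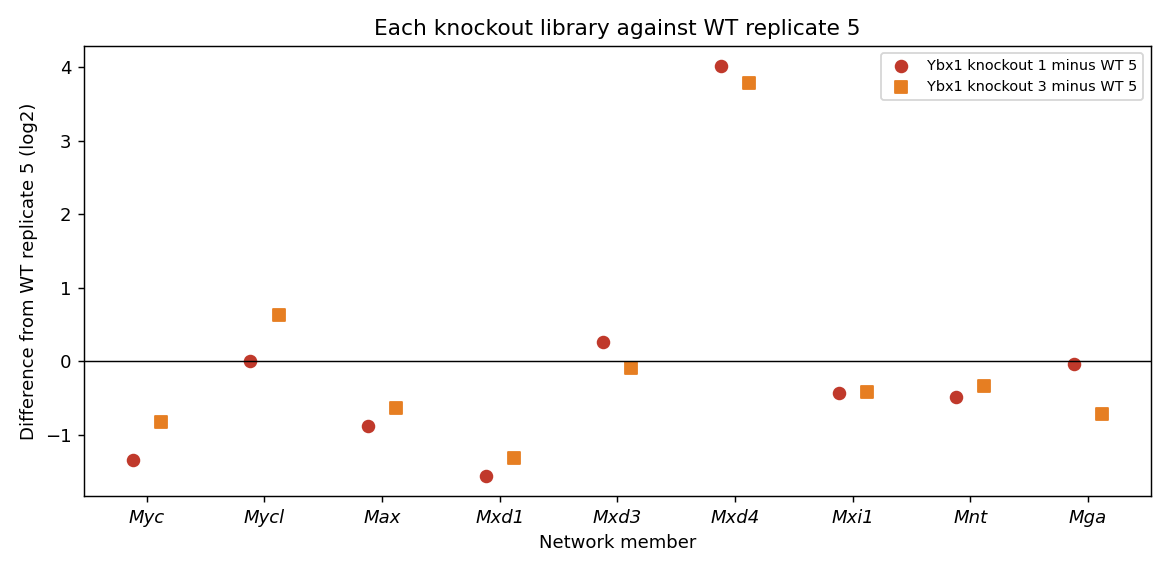
Difference of each Ybx1 knockout library from WT replicate 5 in log2 (y axis) for the 9 tested members (x axis). Mxd4 lies 4.01 and 3.79 above the line at 0, and Mxd1 and Myc lie furthest below it.

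Levels of different genes were compared only per kilobase of exonic length, as the log2 value minus log2 of the length. The length joins all annotated exons of a gene, for Mxd4 8483 bases against 3872 in its longest protein-coding transcript. Whether the deposited values already account for length is not given, and the order below assumes that they do not. Myc was the most abundant member on this scale in 3 libraries, at 8.27 and 8.79 in the Ybx1 knockouts, against 9.61 in WT replicate 5; in WT replicate 4, at 9.47, it came after Mxi1 at 16.96. In the Ybx1 knockouts Mxd3 followed at 6.24 and 5.89, and Mxd1 at 5.50 and 5.75. Mxi1 came next there at 5.47 and 5.48, and its mean differed from that of Mxd1 by less than the 0.24 between the 2 Mxd1 values. Max was at 4.38 and 4.63 in the Ybx1 knockouts, against 3.18 and 5.27 in the WT samples. Mxd4, Mnt and Mga, the next 3 in the knockouts, differed by no more in their means than the 0.68 between the 2 Mga values. In WT replicate 5 the order after Myc was Mxd1 at 7.06, Mxd3 at 5.98 and Mxi1 at 5.90. Mxd4 was at 3.86 and 3.64 per kilobase in the Ybx1 knockouts, against 1.97 and -0.14 in the WT samples, and so ranked sixth in both Ybx1 knockouts and eighth in both WT samples of the 9 members.

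The level of Myc relative to another member of the same library does not depend on how the libraries were scaled by a constant. WT replicate 4 differs by more than a constant: its difference from WT replicate 5 was 11.06 log2 for Mxi1 and -2.08 for Max. Its values of Max, Mxd3 and Mxd4 lie in the narrow band, so log ratios to these genes in that library rest on such values. Myc minus Mxd4 was 2.76 and 3.51 log2 in the Ybx1 knockouts, against 5.86 and 8.12 in the WT samples, and the groups did not overlap. Myc minus Max was 3.48 and 3.76 in the Ybx1 knockouts, against 5.89 and 3.94 in the WT samples. Myc minus Mxd3 and Myc minus Mga were also lower in both Ybx1 knockouts than in both WT samples. Myc minus Mnt overlapped, at 4.09 and 4.46 in the Ybx1 knockouts, against 3.03 and 4.95 in the WT samples. For Mxd1 the log ratio went the other way against WT replicate 5, at 1.38 and 1.67 in the Ybx1 knockouts, against 1.17 there and 2.47 in WT replicate 4. Over the 6 repressor members together, Myc minus their mean was 2.33 and 3.001 in the Ybx1 knockouts, against 1.99 and 3.97 in the WT samples, where the WT replicate 4 value holds the Mxi1 level of 19.73. Without Mxi1 it was 2.51 and 3.20 against 4.15 and 4.29. These ratios are descriptions of chosen genes and carry no test.

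**Figure D4:**
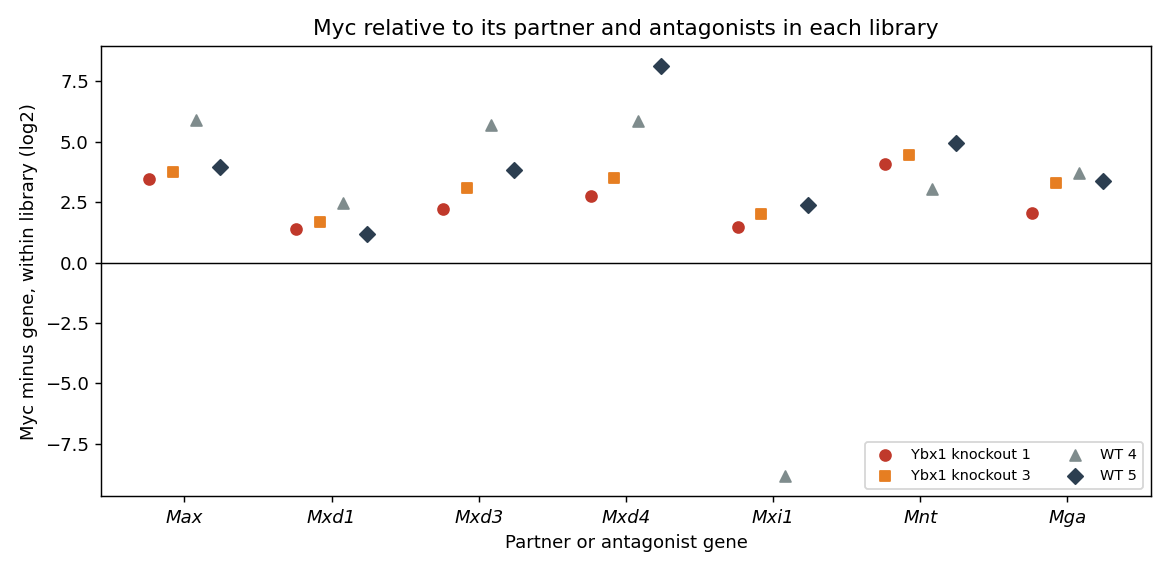
Log2 value of Myc minus that of its partner Max and of each antagonist gene (x axis) within each library (y axis), with 1 point per Ybx1 knockout or WT library. Myc minus Mxd4 is at 2.76 and 3.51 in the Ybx1 knockouts, below 5.86 and 8.12 in the WT samples, and Myc minus Mxi1 is negative in WT replicate 4 alone.

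Likeness of pattern was measured as the Euclidean distance between the 4 log2 values of 2 genes, each minus its own mean, over 8558 genes with a mean of at least 5. The nearest genes to Myc were Xdh (distance 0.25), Parp3 (0.25), Sppl2a (0.30), Rbm4b (0.32) and Zdhhc5 (0.33). Xdh, which encodes xanthine dehydrogenase, was at 5.87 and 6.22 in the Ybx1 knockouts, against 7.21 and 7.08 in the WT samples. The nearest genes to Mxd4 were Hyls1 (0.31), Kdm4b (0.41), Svip (0.42), Map4k5 (0.44) and Gmcl1 (0.59). Kdm4b, a histone H3K9 demethylase gene, was at 6.39 and 6.43 in the Ybx1 knockouts, against 5.01 and 2.43 in the WT samples, with its WT replicate 4 value again in the narrow band. Within the network the closest pairs were Max with Mxd3 (0.91) and Myc with Mxd1 (0.98).

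Genes that MYC is known to activate did not lie lower as a list in the Ybx1 knockouts. Of 34 such targets, all tested, limma called 0, 12 lay above both WT samples in both Ybx1 knockouts and 1, C1qbp, below, where all tested genes gave 17.3% and 18.8%. The list's median limma difference was 0.45, beside 0.60 over genes with a log2 value of at least 5 in at least 2 libraries. Against WT replicate 5 alone 20 lay above and 3 below (41.8% and 33.4% of all tested genes), with a median difference of 0.17, beside 0.07 over all tested genes. Ppat, an enzyme of purine synthesis, had the smallest p of the list, at 8.71 and 8.46 in the Ybx1 knockouts, against 5.33 and 6.78 in the WT samples (limma unadjusted p = 0.0262, adjusted p = 0.826). The mitochondrial chaperonin gene Hspe1 was at 7.62 and 8.20 against 5.56 and 6.98. Of the 34, 3 were called lower (3.96% of all tested genes) and 0 higher in the authors' deposited table, which lists Hspe1 at a log2 fold change of -5.48, opposite in sign to its sample columns.

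Of 7 tested genes that MYC is known to repress, 3 lay below both WT samples, the CDK inhibitor genes Cdkn1a, Cdkn1b and Cdkn2b, and 2 above, Gadd45g and Ndrg2. Among all tested genes 18.8% lay below and 17.3% above both WT samples, and with 7 genes the counts are a description only. Cdkn1b was at 8.24 and 9.11 in the Ybx1 knockouts, against 17.42 and 9.97 in the WT samples. Gadd45g, a stress-response gene, was at 5.13 and 6.32 against 5.03 and -0.37. The list's median limma difference was -0.93 with all 4 libraries and 0.38 against WT replicate 5 alone, so its sign turned with WT replicate 4. Limma called none of the 7, with an adjusted p of 0.826 for Cdkn1b. Of the 7, 2 (Cdkn1a and Cdkn1b) were called lower in the authors' deposited table, with an adjusted p of 0.00175 for Cdkn1b, and 0 higher, beside 3.96% and 0.157% of all tested genes.

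Partners of the activating and repressing dimers were read against the same all-gene shares, 17.3% above and 18.8% below both WT samples. Over genes with a log2 value of at least 5 in at least 2 libraries the median limma difference was 0.60, against -0.09 over all tested genes. The shares are therefore no matched background for well-expressed lists. Median limma differences were 0.66 for the coactivators and 0.90 for the corepressors. Against WT replicate 5 alone the medians were -0.30 for the coactivators and 0.14 for the corepressors, beside 0.07 over all tested genes. Of 13 MYC-bound coactivators with MIZ1, 3 lay below both WT samples and 4 above, and against WT replicate 5 alone 8 lay below and 4 above. The shares of all tested genes against WT replicate 5 were 33.4% below and 41.8% above. Wdr5, a subunit of H3K4 methyltransferase complexes, was at 8.84 and 8.72 in the Ybx1 knockouts, against 5.74 and 8.40 in the WT samples, and Ep400, a chromatin remodeller gene, at 8.92 and 8.18 against 18.50 and 9.33. Of 13 SIN3 and NCOR corepressor genes 5 lay above both WT samples and 0 below, and against WT replicate 5 alone 6 lay above and 5 below. In WT replicate 4, 6 of these 13 genes had a value in the narrow band. Sap30, a SIN3 complex subunit gene, was at 7.37 and 8.62 in the Ybx1 knockouts, against 5.30 and 5.94 in the WT samples (limma unadjusted p = 0.0299, adjusted p = 0.826). The histone chaperone gene Rbbp7 was at 10.88 and 10.90 against 6.05 and 10.43.

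Among 10 genes of the MGA complex PRC1.6, 5 lay above both WT samples and 1, Rybp, below, beside 17.3% and 18.8% of all tested genes. Their median limma difference was 1.18, beside 0.60 over genes with a log2 value of at least 5 in at least 2 libraries. Against WT replicate 5 alone 5 lay above and 1 below, beside 41.8% and 33.4% of all tested genes. The median difference from WT replicate 5 was 0.29, beside 0.07 over all tested genes. In WT replicate 4, 4 of the 10 had a value in the narrow band. Ring1, an E3 ligase subunit, was at 7.97 and 7.86 in the Ybx1 knockouts, against 5.40 and 6.56 in the WT samples (limma unadjusted p = 0.0482, adjusted p = 0.826), and Yaf2, a paralog of Rybp in the complex, at 9.10 and 9.20 against 5.68 and 8.47. Of 10 germline genes that PRC1.6 silences 5 were tested and 3 were listed at 0 in all libraries. The groups of all 5 tested ones overlapped, as for Stag3 at 7.22 and 0.51 in the Ybx1 knockouts, against 7.88 and 6.54 in the WT samples, and for Tex101 at 0.22 and 0.69 against 1.45 and 0.22. Of 5 genes of the MLX branch, whose MLX-MONDO dimers sense glucose, Mlx, Txnip and Arrdc4 lay above both WT samples. Arrdc4 was at 7.48 and 8.14 against 5.49 and 6.84, and Txnip at 8.94 and 8.72 against 5.75 and 8.61. The median limma difference of the MLX list was 1.11 with all 4 libraries. Its median difference from WT replicate 5 alone was 0.23, with 4 genes above and 1 below.

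Of 15 genes that control MYC protein stability, 3 lay below both WT samples (Fbxw7, Gsk3b and Pim1) and 4 above, among them Skp2, Aurka and Cip2a. Fbxw7, the ubiquitin ligase receptor that targets MYC for degradation, was at 5.35 and 5.69 in the Ybx1 knockouts, against 17.28 and 7.53 in the WT samples, 2.01 log2 below WT replicate 5 alone. Skp2, another ligase receptor for MYC, was at 7.75 and 6.76 against 5.03 and 6.40. Of 17 genes that act on Myc transcription or bind its mRNA, Ybx1 included, 3 lay below both WT samples and 3 above. For both lists the shares of all tested genes were 18.8% below and 17.3% above. Igf2bp1, an m6A reader that stabilizes Myc mRNA in other cells, was at 4.07 and 2.75 in the Ybx1 knockouts, against 16.83 and 5.37 in the WT samples. Against WT replicate 5 alone, 10 of the 15 stability genes lay below and 4 above, and 5 and 6 of the 17 factors, beside 33.4% and 41.8% of all tested genes. The median limma difference of the stability genes was 0.29 with all 4 libraries, and their median difference from WT replicate 5 alone was -0.36. For the 17 factors these medians were 0.36 and 0.05. Limma called 0 members of each of these lists, with an adjusted p of 0.826 for every gene whose values are given from them except Tex101 (0.871).

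**Figure D5:**
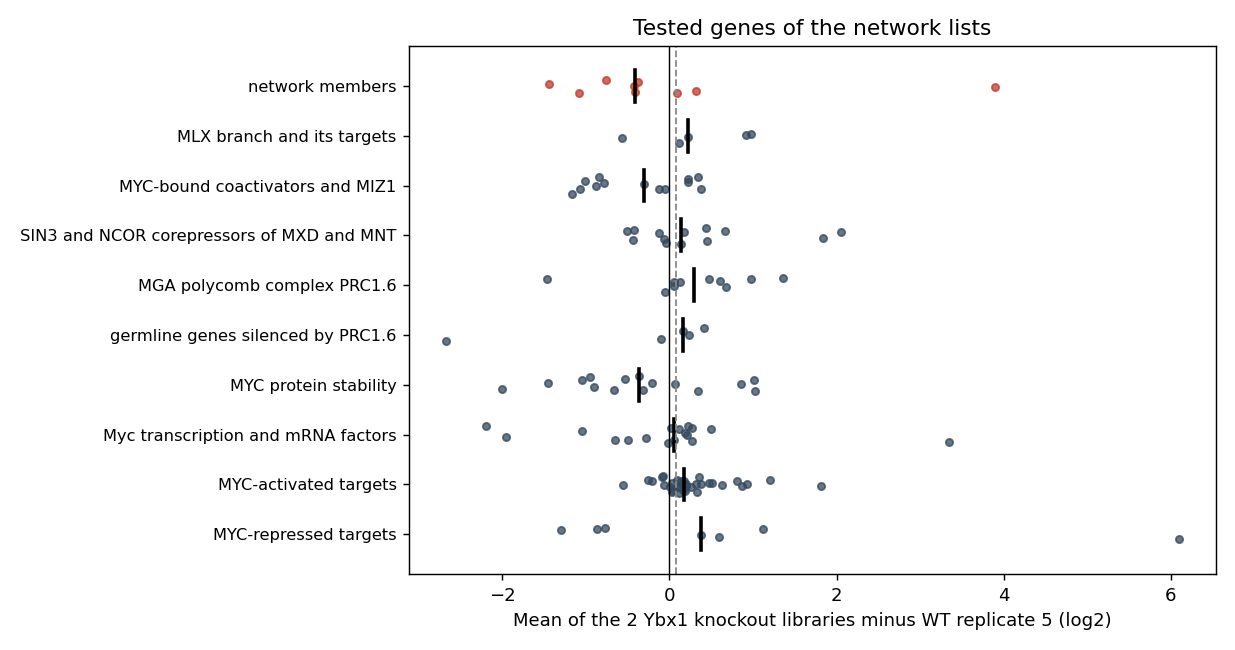
Mean of the 2 Ybx1 knockouts minus WT replicate 5 in log2 (x axis) for each tested gene of 10 lists (rows), with a black bar at each list's median and a dashed line at the median of all tested genes, 0.07. The network members have a median of -0.41 with Mxd4 far to the right, and the MYC-activated targets have a median of 0.17.

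Because the series concerns m6A, the letters GGACT, a common form of the m6A consensus, were counted on the sense strand of the longest protein-coding GENCODE transcript of each tested member. Myc held 6 in 2338 bases, or 2.57 per kilobase, more than 95.4% of 12794 tested genes with such a transcript, whose median was 1.05. Mxd3 came next at 2.26 per kilobase, and Mxd4, with 1.29, and Mxd1, with 1.07, were nearer the median. Mga had the fewest at 0.57. The count describes letters and says nothing of which adenosines are methylated in these cells.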

How the data were processed

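Polyadenylated RNA was sequenced from 2 Ybx1 knockout and 2 WT libraries, grouped by title. Tools named in the submitters' processing notes, without role or order, are HISAT2 2.1.0, CASAVA, DESeq2 and featureCounts, and the build is GRCm38. The authors deposited log2 expression values, whose normalization is not given in the sources used here. Per the file headers they also give their own log2 fold change for each gene, with its p-value before and after adjustment. No counts are given, so depth is unknown and limits on precision from depth could not be computed. No column held other samples.

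Limma 3.58.1 with a mean-variance trend (R 4.3.3) was fitted to the deposited log2 values of the 17303 genes with at least 0 in at least 2 libraries, without a pseudocount, after leaving out 30280 rows at 0 throughout. P-values were adjusted by Benjamini-Hochberg over all tested genes, and the step was tested on simulated data. Exact permutation of 2 against 2 libraries cannot go below p = 0.333 (two-sided) and was not used. Coordinates and lengths are from GENCODE M21 (GRCm38) for 10 of 10 symbols. From each list of network genes the 2 with the smallest p are named, beside all members and Ybx1; further names were chosen after their values were seen, and a few listed genes are not reported here. Members, gene lists and tests were chosen with earlier results of these data known. Other filters, scalings, pseudocounts, no trend and leaving out each library were alternatives.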

Additional observations from a re-analysis of the deposited data

How the results depend on the processing

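Of 98 member differences recomputed under the alternatives, 90 kept their direction and side of the threshold, 2 passed it and 6 changed sign. Without each library in turn, limma called 0 to 4960 of all genes and 0 to 2 members: 26 without knockout replicate 1, 88 without knockout replicate 3, 0 without WT replicate 4 and 4960 without WT replicate 5, where Mxi1 (-11.49) and Mnt (-2.19) passed. All other settings called 0 genes. The Myc difference ran from -1.28 to -0.75 without each library, and its adjusted p from 0.150 to 1 over all alternatives. Sign changes were seen for Max without WT replicate 4 (-0.76), Mga without knockout replicate 3 (0.19) or WT replicate 5 (0.08), and Mycl with median centring (-0.13), without knockout replicate 3 (-0.31) or without WT replicate 5 (-0.30); the cause was not tested. Leaving out each library gave -0.76 to 1.33 for Max, -0.49 to 0.19 for Mga and -0.31 to 0.32 for Mycl. Mycl did not pass the filter of log2 5. The median difference of all tested genes was -0.09, against -0.23 with median centring, 0.16 with quantile normalization, 0.60 with the filter of log2 5 and -0.46 without WT replicate 5. With the values added after seeing the data, members below and above WT numbered 4 and 2 with median centring, 4 and 3 with quantile normalization, and 6 and 2 without WT replicate 4. Leaving out a library leaves an arm with 1 sample, which is assumed to vary like the other group. No paired analysis was possible because the knockout and WT libraries share no replicate number.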
